A study of Mus musculus with 2 samples.

Results

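The motile cilia gene program is described here as 47 genes that build or switch on the beating cilium, of the 31053 genes measured in mouse mammary cells. The genes were listed by symbol, and each was found by its symbol in the deposited feature list. The list was drawn up with earlier results of these data known, and the levels in the cKO and Ctrl libraries were among the values that led to it. Differences between the libraries are therefore given for these genes as a description, with no test.

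The data were single-cell RNA-seq counts from 2 libraries, 1 per group, made from mammary cells of C57BL/6 mice. The cKO library came from K8-CreERT2;miR-200c/141-flox/flox mice, in which the promoter of keratin 8, a luminal keratin, drives a Cre that tamoxifen switches on. The Ctrl library came from miR-200c/141-flox/flox mice, which carry the same loxP-flanked alleles of the microRNA locus without the Cre. Tamoxifen was given to both groups when mice were 8 to 10 weeks old, and glands were digested 4 weeks later and sorted for mammary cells. The age stated for the samples is 8 weeks, and the number of mice per library is not stated. With 1 library per group, genotype, the presence of Cre, the mice and the preparation cannot be told apart. The deleted microRNAs themselves were not analysed here, so the genotype labels were not checked against them.

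A motile cilium is a hair-like cell projection whose core, the axoneme, holds microtubule doublets around a central pair. Dynein arms bend it, radial spokes and the central pair set the beat, and the ruler and nexin links keep the spacing. The transcription factor Foxj1, acting with RFX factors, switches on the axonemal genes in airway, oviduct and ependymal cells, and Mcidas and Ccno belong to the branch that multiplies centrioles for many cilia on a cell. Mammary epithelium is not known for motile cilia. The mammary luminal layer holds hormone-sensing cells, marked by Esr1 and Prlr, and progenitor cells, marked by Aldh1a3, over a basal layer of myoepithelial cells.

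After filtering, 5438 cKO and 3389 Ctrl cells were used, with 101201595 and 92855802 unique molecular identifiers (UMIs, each a counted RNA molecule). The median was 13905 UMIs per cKO cell and 19799 per Ctrl cell, so Ctrl cells were read more deeply, and 6 barcodes occurred in both libraries. Cells were sorted into classes by the mean level of marker lists. Luminal cells numbered 3940 in cKO and 2198 in Ctrl. They were divided at a marker score of 0.4 into hormone-sensing cells (1484 cKO and 667 Ctrl), cells with both marker sets (1181 and 823), progenitor cells (1067 and 644) and cells with neither marker set (208 and 64). These classes are ranges of a score, and 198 cKO and 94 Ctrl hormone-sensing cells lay within 0.1 of a cut. Basal cells numbered 935 and 1064, and endothelial cells 518 and 113, in cKO and Ctrl.

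The promoters of part of the genes carried a sequence that the list had not used. The X-box is the site that RFX factors bind, and it was searched as GTNNCC, then 0 to 3 bases, then NGNAAC, on both strands. RefSeq promoter windows, from 250 bases before to 50 after a gene's start in GRCm38.p6, could be matched to 38 of the 47 genes. The other 9 (Foxj1, Rsph1, Rsph4a, Nme5, Cfap54, Cfap65, Cfap53, Tppp3 and Rp1) were not searched. An X-box was found in 19 of these 38 (50%), against 5.94% of the 27025 genes with a window. The forkhead heptamer GTAAACA, on both strands, was found in 3 of the 38 (7.89%), against 4.05% of all genes with a window. Iqub held both motifs, at places that did not overlap. Of the 21 X-box matches, 11 began within 60 bases before the start. The following 8 sites are shown because their genes span the results, from Pifo and Iqub with very large ratios to the barely detected Hydin, and capitals mark the X-box match.
Dynlrb2, chr8:116504958-116504982, plus strand: tgcctgGTTGCCTAGCAACggggga
Pifo, chr3:106001498-106001523, minus strand: ggttccGTTCCCTTGGCAACgtagta
1110017D15Rik, chr4:41507764-41507788, minus strand: aaatgtGTTGCCCGGCAACaactcg
Cfap44, chr16:44394766-44394791, plus strand: agggacGTTGCTATGGCAACcgcagt
Iqub, chr6:24515060-24515084, minus strand: ctggcaGTTGCTAGGATACgccagc
Cfap45, chr1:172521105-172521130, plus strand: tcttggGTTGCTATGGTAACgcgtca
Tekt2, chr4:126325699-126325723, minus strand: ggggcgGTTGCTCGGCAACcagagc
Hydin, chr8:110266950-110266975, plus strand: tctgcgGTTGCTGTGGCAACagatgg

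Among these the Dynlrb2 site began 51 bases before the start, the Pifo site 20, the 1110017D15Rik site 18 and the Iqub site 11. Of the matched genes found in at least 25% of the cells rich in the program, 10 of 18 held the motif (55.6%), against 9 of the other 20 (45%). A match is a stretch of letters and not a measured binding site.

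The deleted microRNAs are shown with the seed, bases 2 to 8, in capitals, because the seed decides which transcripts they pair with. Both were read from RefSeq on GRCm38.p6, minus strand.
mmu-miR-200c-3p, chr6:124718324-124718346: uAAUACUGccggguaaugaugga
mmu-miR-141-3p, chr6:124717917-124717938: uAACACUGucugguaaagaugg

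A match to either seed (CAGTATT or CAGTGTT) was present in 8 of the 47 genes, 17.0%, taking the longest annotated 3′ untranslated region, against 25.7% of 21037 genes. The regions of the 47 genes were shorter, with a median of 470 bases against 960 over all genes. Foxj1 held 1 miR-141 match, and Rfx3 held 2. Ccdc39, Rsph1 and Ak7 held a miR-141 match, Dnah9 and Rp1 a miR-200c match, and Rsph4a a match to each.

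The program was far higher in cKO than in Ctrl hormone-sensing cells. Summed over the 47 genes it reached 921 counts per 1000000 UMIs (CPM) in cKO, with a 95% counting interval of 909 to 933, against 227 CPM (220 to 234) in Ctrl, a ratio of 4.06 (3.92 to 4.20). Cells with both marker sets held 564 CPM in cKO and 167 CPM in Ctrl, a ratio of 3.38 (3.29 to 3.47). Progenitor cells held 138 CPM in cKO and 89.3 CPM in Ctrl, a ratio of 1.55 (1.45 to 1.65). Basal cells held 85.8 CPM in cKO and 98.6 CPM in Ctrl, a ratio of 0.870 (0.790 to 0.957). Endothelial cells held 26.3 CPM in cKO and 28.6 CPM in Ctrl, a ratio of 0.918 (0.710 to 1.20). The intervals hold the error of counting alone, and differences among mice could not be measured.

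A single gene supplied much of these sums. Capsl, a calcium-binding calcyphosine-like protein, gave 54.6% of the program's UMIs in cKO hormone-sensing cells and 54.2% in Ctrl ones. Without Capsl the hormone-sensing sum was 418 CPM in cKO and 104 CPM in Ctrl, a ratio of 4.02 (3.83 to 4.22). In basal cells the gene with most UMIs was Tppp3, and without it the basal ratio turned from below 1 to 1.18.

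Gene by gene, 36 of the 47 had at least 20 UMIs over both libraries in hormone-sensing cells. Of these, 34 were at least 1.5-fold higher in cKO, 0 were lower and 2 lay within that range, while 14.3% of the 12901 genes measured in that class were as much higher and 17.7% as much lower. The members were chosen with this contrast in view, so nothing is read from that count. Of the 36, 19 passed the UMI minimum only with the help of their cKO counts, and the other 17 had at least 20 UMIs in Ctrl alone. Among these 17, 15 were higher and 2 within, with a median ratio of 2.72 and a range of 0.983 to 17.1. The median log2 ratio over the 36 was 3.28, against -0.09 over all genes measured.

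**Figure D1:**
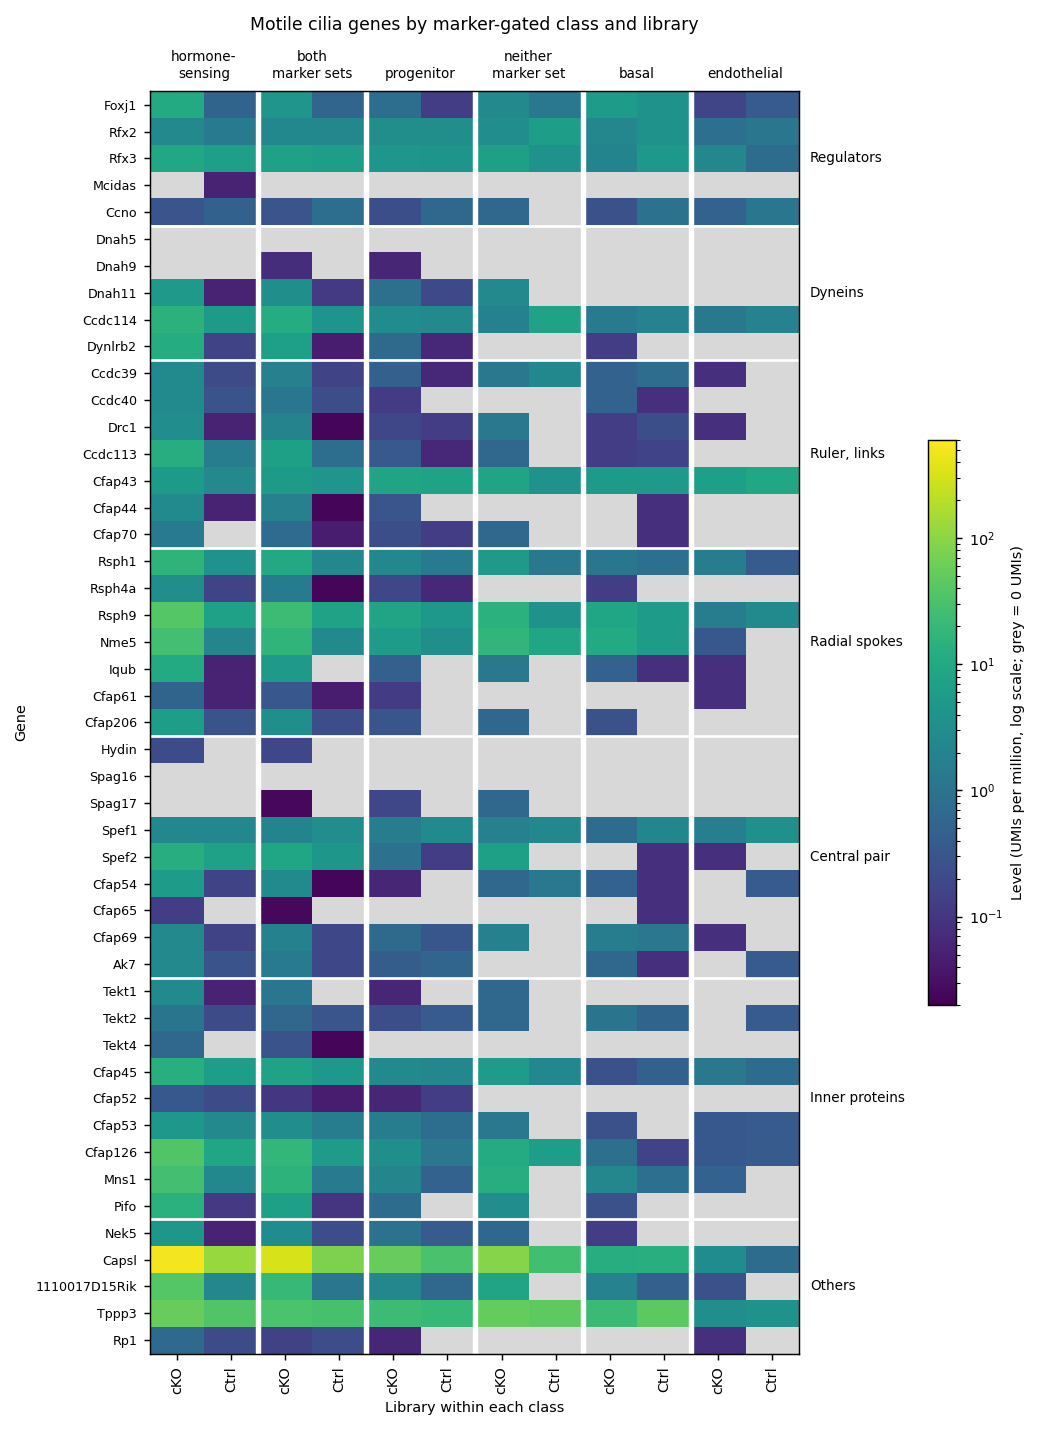
Level of each of the 47 genes, in CPM on a log colour scale, in 6 marker-gated classes, with the cKO library left of Ctrl in each; grey marks 0 UMIs and white lines part the roles. The cKO columns of the hormone-sensing class and of the class with both marker sets are brighter than their Ctrl columns for most rows, while Rfx2, Rfx3, Cfap43, Spef1 and Tppp3 are seen in every class of both libraries.

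Among the regulators, Foxj1 (chr11:116330704-116335399, minus strand) differed most between the libraries. It had 252 UMIs (10.8 CPM) in cKO hormone-sensing cells, against 10 UMIs (0.553 CPM) in Ctrl ones, a ratio of 19.5 (10.5 to 41.3). In cells with both marker sets it had 173 UMIs in cKO and 25 in Ctrl, a ratio of 7.51 (4.92 to 11.9), and in progenitor cells 14 and 2 UMIs. Basal cells of both libraries held Foxj1 at 5.83 CPM in cKO and 4.05 CPM in Ctrl, a ratio of 1.44 (0.943 to 2.20). The Ctrl level of Foxj1 was thus higher in basal than in hormone-sensing cells, whereas the cKO level was higher in hormone-sensing cells.

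The RFX factors, which bind the X-box, were present in every class and differed less. Rfx3 had 221 UMIs (9.48 CPM) in cKO hormone-sensing cells and 123 UMIs (6.80 CPM) in Ctrl ones, a ratio of 1.39 (1.11 to 1.75). Rfx2 had 59 and 25 UMIs, a ratio of 1.83 (1.13 to 3.05). In cells with both marker sets the ratio was 1.18 (0.991 to 1.39) for Rfx3 and 1.06 (0.798 to 1.42) for Rfx2. In basal cells both were lower in cKO, with 16 UMIs against 61 for Rfx3 and 18 against 49 for Rfx2.

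The regulators of centriole multiplication were near 0. Mcidas, which starts the multiciliated program, had 0 UMIs in cKO hormone-sensing cells and 1 in Ctrl ones, with 0 in the other classes. Ccno, a cyclin of the same branch, had 7 UMIs in cKO and 9 in Ctrl hormone-sensing cells. In cells with both marker sets Ccno was lower in cKO, with 12 UMIs against 35, a ratio of 0.372 (0.176 to 0.734).

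Dynein and docking genes ranged from well detected to 0 UMIs. Dnah11, an outer-arm heavy chain, had 123 UMIs (5.28 CPM) in cKO hormone-sensing cells and 1 UMI in Ctrl ones, a ratio of 95.4 (16.8 to 3799). With 1 Ctrl UMI, the upper end of that interval is loosely set. Dynlrb2 (chr8:116504974-116515915, plus strand), a dynein light chain of the roadblock type, had 277 UMIs (11.9 CPM) in cKO and 3 UMIs in Ctrl, a ratio of 71.6 (24.3 to 349). Ccdc114, which docks the outer arms, had 347 UMIs in cKO and 99 in Ctrl, a ratio of 2.72 (2.17 to 3.44). The other outer-arm heavy chains were at or near 0. Dnah5 had 0 UMIs in the luminal, basal and endothelial classes of both libraries, and Dnah9 had 0 UMIs in hormone-sensing cells of both.

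All 7 genes of the ruler and nexin-link group, in which Cfap43, Cfap44 and Cfap70 were also listed, were higher in cKO hormone-sensing cells. Ccdc39 and Ccdc40, which together form the ruler, had 61 and 66 UMIs in cKO against 4 and 5 in Ctrl, ratios of 11.8 (4.39 to 44.8) and 10.2 (4.17 to 32.6). Drc1, of the nexin-dynein regulatory complex, had 76 UMIs in cKO and 1 in Ctrl, a ratio of 59.0 (10.3 to 2359). An annotated gene on the same strand, Gm43755, lies at the 3′ end of Drc1, so its reads may be divided between the models. The remaining genes of the group had no such neighbour at the 3′ end. Elsewhere along the gene, Cfap43 overlaps Itprip, Gm22240 and Mir8090 on the same strand, and Ccdc113 overlaps 1700112L15Rik. In other groups, Ccdc114 overlaps Gm9712, Mns1 Gm36948 and Pifo Gm42721 on the same strand, and Hydin, Spag16, Spag17 and Rp1 also have such overlaps. The part of these overlaps in the counts was not tested. Ccdc113 had 289 UMIs in cKO and 28 in Ctrl, a ratio of 8.01 (5.42 to 12.3). Cfap44, of the tether that holds an inner dynein, had 64 UMIs in cKO and 1 in Ctrl, a ratio of 49.6 (8.60 to 1991), while its partner Cfap43 had 127 and 46, a ratio of 2.14 (1.52 to 3.07). Cfap70 had 33 UMIs in cKO and 0 in Ctrl, at least 8.53-fold higher against a floor of 3 Ctrl UMIs.

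Radial spoke genes, whose products carry signals between the central pair and the dyneins, summed to 105 CPM in cKO hormone-sensing cells and 13.9 CPM in Ctrl ones. Rsph9, of the spoke head, had 930 UMIs (39.9 CPM) in cKO and 132 UMIs (7.30 CPM) in Ctrl, a ratio of 5.47 (4.55 to 6.61). Nme5, of the spoke neck, had 651 UMIs (27.9 CPM) in cKO and 40 UMIs (2.21 CPM) in Ctrl, a ratio of 12.6 (9.17 to 17.8). Both were plainly detected in Ctrl. Iqub (chr6:24444865-24515067, minus strand), a spoke protein, had 250 UMIs in cKO and 1 in Ctrl, a ratio of 194 (34.5 to 7690). Iqub was undetected among the Ctrl cells with both marker sets, where cKO held 203 UMIs, at least 73.4-fold higher against the floor. The head proteins Rsph1 and Rsph4a had 378 and 77 UMIs in cKO against 69 and 3 in Ctrl. Cfap206, at the spoke base, had 153 UMIs in cKO and 5 in Ctrl, a ratio of 23.7 (9.95 to 74.2), and Cfap61 had 13 and 1.

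The central pair genes were uneven. Cfap54 had 131 UMIs in cKO hormone-sensing cells and 3 in Ctrl ones, a ratio of 33.9 (11.3 to 166). Cfap69 and Ak7 had 60 and 59 UMIs in cKO against 3 and 5 in Ctrl. Spef2 had 290 UMIs in cKO and 131 in Ctrl, a ratio of 1.72 (1.39 to 2.13). Spef1 did not differ between the libraries by more than its counting interval. This gene, for a microtubule-binding protein of the central pair, had 57 UMIs in cKO and 45 in Ctrl, a ratio of 0.983 (0.653 to 1.49), and it was lower in cKO progenitor cells, with 26 UMIs against 41. Another annotated gene, Cenpb, overlaps Spef1 on the same strand, and the part of that overlap in these counts was not tested. Hydin had 5 UMIs in cKO and 0 in Ctrl, Cfap65 had 3 and 0, and Spag16 and Spag17 had 0 in both libraries.

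Tektins and other proteins inside the microtubules differed widely in how far cKO exceeded Ctrl. Mns1 had 654 UMIs (28.0 CPM) in cKO hormone-sensing cells and 45 UMIs (2.49 CPM) in Ctrl ones, a ratio of 11.3 (8.33 to 15.6). Pifo (chr3:105996957-106014646, minus strand), known at the base of the cilium, had 338 UMIs (14.5 CPM) in cKO and 2 UMIs in Ctrl, a ratio of 131 (36.0 to 1087). Cfap126 had 838 UMIs (35.9 CPM) in cKO and 161 UMIs (8.90 CPM) in Ctrl, a ratio of 4.04 (3.41 to 4.81). Cfap45 and Cfap53, which coat the inside of the doublets, differed less. Cfap45 had 305 and 119 UMIs, and Cfap53 had 113 and 46, ratios of 1.99 (1.60 to 2.48) and 1.91 (1.34 to 2.75). Tekt1 had 65 UMIs in cKO and 1 in Ctrl, Tekt2 had 26 and 4, Tekt4 had 15 and 0, and Cfap52 had 8 and 4.

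Among the remaining genes, 1110017D15Rik (chr4:41505009-41517333, minus strand) had 924 UMIs (39.6 CPM) in cKO hormone-sensing cells and 42 UMIs (2.32 CPM) in Ctrl ones, a ratio of 17.1 (12.5 to 23.8). Capsl (chr15:9436028-9466038, plus strand) had 11735 UMIs (503 CPM) in cKO and 2227 UMIs (123 CPM) in Ctrl, a ratio of 4.09 (3.91 to 4.28). Nek5, a kinase of the NIMA family, had 108 UMIs in cKO and 1 in Ctrl, a ratio of 83.8 (14.7 to 3339). Tppp3, a tubulin polymerization-promoting protein, had 1271 UMIs in cKO and 657 in Ctrl, and its ratio of 1.5 (1.37 to 1.65) sat on the 1.5-fold line. Rp1 had 16 UMIs in cKO and 4 in Ctrl and so passed the minimum of 20 UMIs exactly.

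**Figure D2:**
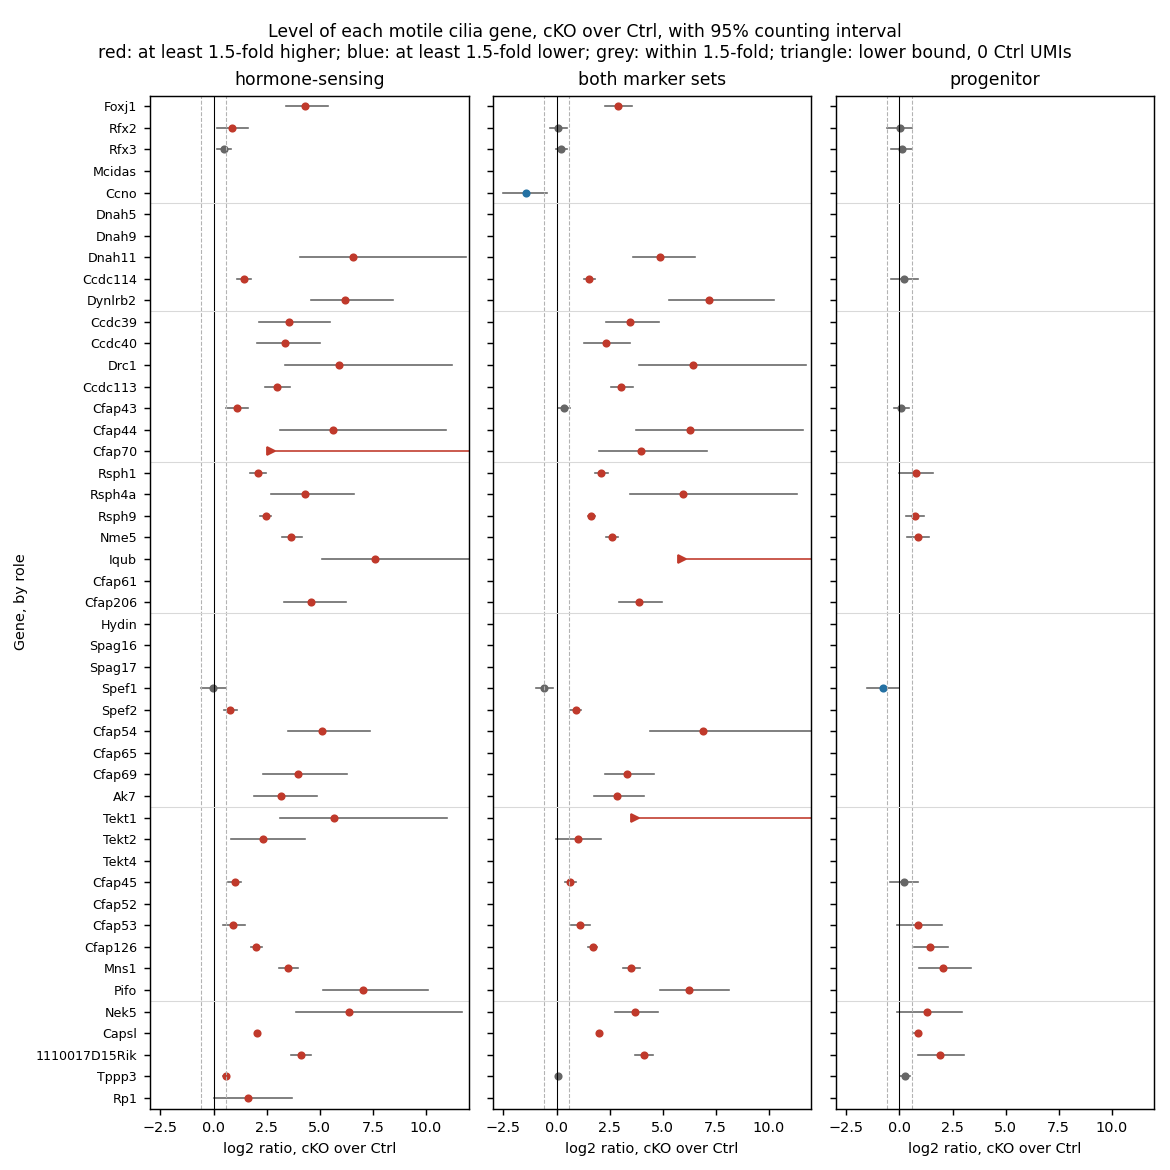
Ratio of the cKO level to the Ctrl level (log2 axis) with its 95% counting interval for each gene with at least 20 UMIs in 3 luminal classes; dashed lines mark 1.5-fold, triangles mark lower bounds, and the longest intervals run past the right edge. In hormone-sensing cells the points run from about 0 for Spef1 to 7.60 for Iqub, and in progenitor cells fewer genes are shown and their points lie nearer to 0.

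In the other classes the number of genes called was smaller, and here too many genes passed the minimum of 20 UMIs only with their cKO counts. Among cells with both marker sets, 30 of the 36 genes with at least 20 UMIs were higher in cKO and 1 (Ccno) was lower, against 11.6% and 16.7% of all genes measured in that class. Of the 36, 17 passed through their cKO counts, all of them higher, and among the 19 with 20 UMIs in Ctrl alone 13 were higher, 1 lower and 5 within. In progenitor cells 16 genes passed the minimum, 9 of them higher and 1 (Spef1) lower, against 7.74% and 13.1% of all genes. The 9 were Rsph1, Rsph9, Nme5, Cfap53, Cfap126, Mns1, Nek5, Capsl and 1110017D15Rik, and 5 of them passed only through cKO. With Prlr and Aldh1a3 alone as the markers that divide luminal cells, 4 were higher. Capsl had 55.1 CPM in cKO and 30.5 CPM in Ctrl progenitor cells, a ratio of 1.80 (1.61 to 2.02), and Mns1 had 36 UMIs against 8. In basal cells 14 genes passed, with 3 higher (Nme5, Mns1 and 1110017D15Rik) and 4 lower (Rfx2, Rfx3, Spef1 and Tppp3), against 10.1% and 8.93% of all genes, and 2 of the 3 higher genes passed only through cKO. In endothelial cells 7 passed, with 2 higher (Rfx3 and Capsl) and 3 lower (Ccdc114, Rsph9 and Spef1), against 18.9% and 10% of all genes, and 1 of the 7 had 20 UMIs in Ctrl alone. In the cells with neither marker set 6 passed, with 5 higher (Rsph9, Nme5, Cfap126, Mns1 and Capsl) and 0 lower, against 12.5% and 19.3% of all genes, and 4 of the 5 passed only through cKO.

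The class sums could come from a slight level in many cells or a high level in few, so the number of the 47 genes detected in each cell was counted. Each cell was first thinned to 3000 UMIs, because Ctrl cells were deeper, which left out 117 cKO and 32 Ctrl luminal cells. At least 3 of the genes were then detected in 18% of cKO hormone-sensing cells (257 of 1426, 16.1 to 20.1%), against 1.69% of Ctrl ones (11 of 652, 0.845 to 3.0%). The share was 9.84% (8.20 to 11.7%) in cKO and 0.365% (0.0754 to 1.06%) in Ctrl among cells with both marker sets. Both classes thus held far more such cells in cKO. In progenitor cells it was 0.859% in cKO and 0.315% in Ctrl, with intervals that overlapped. The background from classes that should lack the program was 0.115% in cKO and 0.494% in Ctrl basal cells. No endothelial cell reached it, 0 of 503 in cKO and 0 of 106 in Ctrl, and with 3 cells as the limit that a count of 0 allows, the shares could be up to 0.596% and 2.83%. The order of the hormone-sensing shares held at other depths, with 6.16% in cKO and 0.150% in Ctrl at 1000 UMIs, and 25.7% and 4.08% at 5000 UMIs.

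Without thinning the difference was hidden at that cut. At least 3 genes were detected in 47.4% of cKO and 46.3% of Ctrl luminal cells when all UMIs were used, with a median of 28997.5 UMIs in the Ctrl ones. The upper end of the distribution still differed. No Ctrl luminal cell held more than 12 of the 47 genes, while cKO cells reached 30. After thinning the highest numbers were 15 in cKO and 4 in Ctrl.

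**Figure D3:**
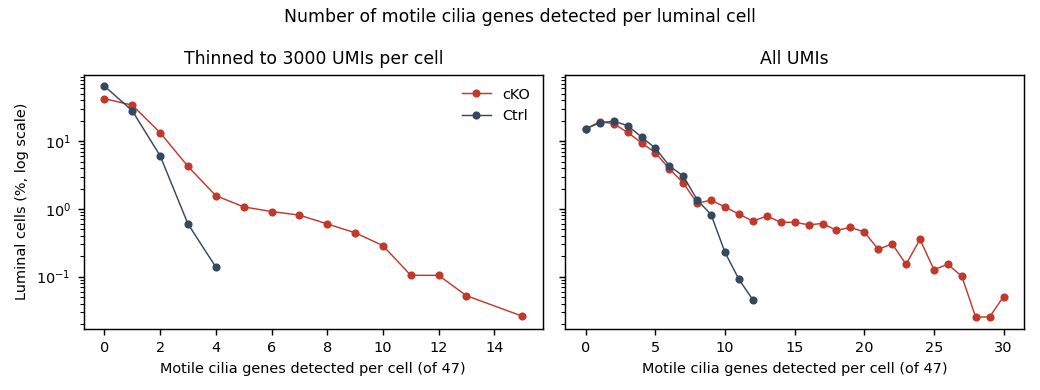
Share of luminal cells (log axis) with each number of the 47 genes detected, after thinning to 3000 UMIs per cell on the left and with all UMIs on the right, for the cKO library in red and Ctrl in blue; numbers with no cell are not drawn. The Ctrl curve ends at 4 genes after thinning and at 12 with all UMIs, and the cKO curve runs on to 15 and 30.

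Cells with at least 10 of the 47 genes detected are called program-rich, a level set after the data were seen. They made up 348 of 3940 cKO luminal cells (8.83%, 7.96 to 9.76%) and 8 of 2198 Ctrl ones (0.364%, 0.157 to 0.716%). The level cuts a continuous tail, since 53 cKO luminal cells held 9 of the genes and 42 held 10. Of the 348, 182 were hormone-sensing, 157 had both marker sets, 7 were progenitor cells and 2 had neither set. In Ctrl, 7 of the 8 had both marker sets and 1 was hormone-sensing. No basal cell was program-rich, 0 of 935 in cKO and 0 of 1064 in Ctrl.

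Luminal and hormone-sensing markers were detected in program-rich cKO cells. These cells were taken from cells already gated as luminal on a list with Krt8. The hormone-sensing class and the class with both marker sets were gated on the list with Prlr. Finding these markers therefore follows in large part from the gate. The keratin Krt8 stood at 3682 CPM in program-rich cells and 4277 CPM in the other cKO luminal cells. All 348 held a Krt8 and a Prlr UMI. Esr1, the oestrogen receptor, stood at 40.6 CPM in program-rich cells and 20.1 CPM in the other cells, and the prolactin receptor Prlr at 970 and 725 CPM. Cited1 went the other way, at 402 and 429 CPM. Summed over its 5 genes, the hormone-sensing list was 1509 CPM in program-rich cells and 1252 CPM in the other cKO luminal cells, but 2165 CPM in the cKO hormone-sensing cells that were not program-rich. Against the last of these, Prlr (1230 CPM), Pgr, Foxa1 and Cited1 (774 CPM) were lower in program-rich cells and Esr1 (34.8 CPM) was higher. Aldh1a3, of the progenitor list, stood at 660 and 934 CPM. The summed progenitor list was 897 CPM in program-rich cells and 1463 CPM in the other cKO luminal cells. In the cKO hormone-sensing cells that were not program-rich it was 109 CPM, but that class was gated on a progenitor score below the cut. Of the 348 program-rich cells, 157 were in the class with both marker sets, gated on a progenitor score at or above it. The contrasts with hormone-sensing cells, for both lists and their genes, thus mix classes divided on these genes. Program-rich and other cells were not compared within a class for these markers.

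Depth and other cell types were set beside these cells. Program-rich cells had a median of 24801 UMIs, against 15400.5 in the other cKO luminal cells, and 1.96% and 2.11% of mitochondrial UMIs. Undetected pairs of cells could raise UMIs and mix the marker sets, and their part in the result was not tested. The basal marker list stood at 184 CPM in program-rich and 202 CPM in other cells, the endothelial list at 20.3 and 25 CPM, and the myeloid list at 12.3 and 13.7 CPM. Both groups had been gated as luminal because that score was above the basal, endothelial and myeloid scores. Cells high in those lists were thus left out beforehand, and these values do not bear on pairs of cells. A list of 12 genes from epithelia known to bear motile cilia (airway, oviduct and ependyma) summed to 44.1 CPM and 9.69 CPM. Of that sum, 31.3 CPM came from Tmem212 and 8.43 CPM from Ccdc153, which are themselves motile cilia genes. The airway and lung markers Scgb1a1, Scgb3a2, Sftpb, Bpifa1 and Nkx2-1 were at 0 in the program-rich cells, and all of them but Scgb1a1 were also at 0 in the other cKO luminal cells. The oviduct glycoprotein gene Ovgp1 stood at 2.15 CPM in program-rich and 1.17 CPM in other cells, the airway secretoglobin Scgb3a1 at 0.448 and 0.143 CPM, and the lung surfactant gene Sftpc at 0.986 and 6.57 CPM.

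How complete the program was in such cells was measured gene by gene, each gene in the cKO luminal cells that held at least 10 of the other 46. Of the 47 genes, 24 were found in at least 25% of these cells, 10 in under 5%, and 4 in none. The share of cells with a UMI depends on a gene's abundance, so a low share does not show absence. For the 4 genes at 0 of 348 cells, the same limit of 3 cells allows a share of up to 0.862%.

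**Figure D4:**
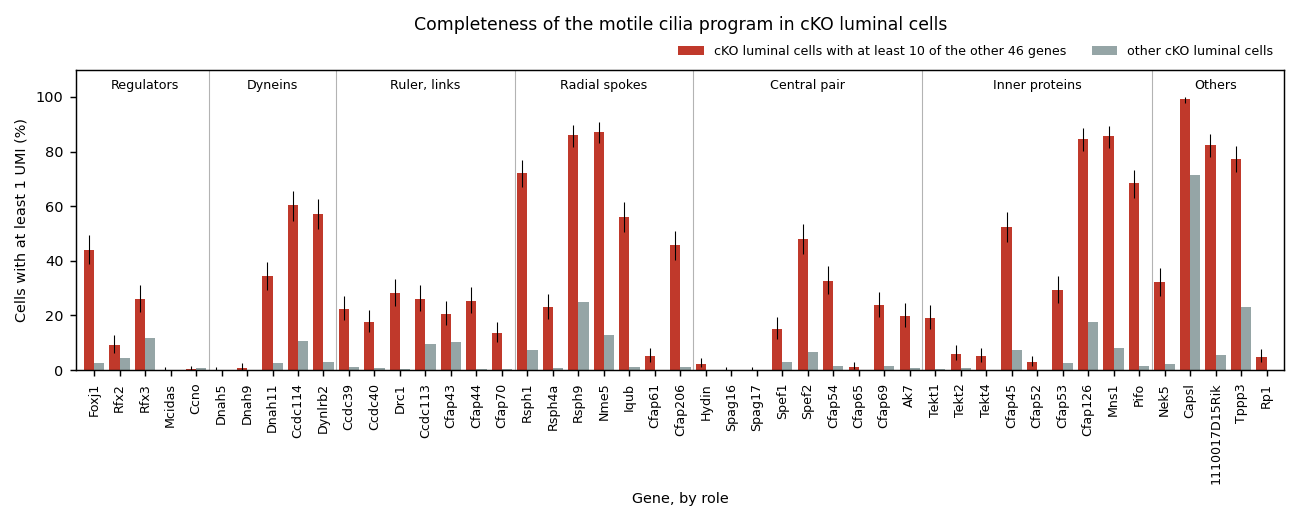
Share of cKO luminal cells with at least 1 UMI of each gene (%), among cells with at least 10 of the other 46 genes in red with 95% binomial intervals and among the other cKO luminal cells in grey, ordered by role. Red bars reach over 80% for Rsph9, Nme5, Cfap126, Mns1, Capsl and 1110017D15Rik, and are at 0 for Mcidas, Dnah5, Spag16 and Spag17.

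Radial spokes were widely represented, with a median share of 56.1% over their 7 genes. Nme5 was found in 87.3% (83.1 to 90.7%) of program-rich cells against 12.9% of the others, and Rsph9 in 85.9% against 25%. Iqub was found in 56.1% (50.7 to 61.5%) against 0.973%, and 91.6% of its cKO luminal UMIs lay in program-rich cells. Cfap61 was at the low end of the role with 5.17%.

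Inner proteins had a median of 29.2% over 9 genes. Mns1 reached 85.6%, Cfap126 84.7% and Pifo 68.4% (63.1 to 73.3%), the last against 1.53% of the other cells. Tektins were lower, with Tekt1 at 19.1% (15.1 to 23.7%) against 0.278%, Tekt2 at 6.09% and Tekt4 at 5.17%. Program-rich cells held 25 Tekt4 UMIs, against 1 in the other cKO luminal cells.

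The 7 genes listed in the ruler and nexin-link group lay in a narrow band, from 13.5% for Cfap70 to 28.1% for Drc1. Cfap43 and Ccdc113 differed from their group, since 10.4% and 9.41% of the other cells also held them. Of their cKO luminal UMIs 16.4% and 25% lay in program-rich cells, against 86.3% for Drc1 and 87.9% for Cfap44.

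In the dynein and docking group, the docking gene Ccdc114 was found in 60.3% of program-rich cells. The light chain Dynlrb2 was found in 57.2% (51.8 to 62.6%) and the heavy chain Dnah11 in 34.3% (29.3 to 39.6%). Dnah9 was found in 3 of 348 cells (0.862%, 0.178 to 2.50%), and Dnah5 in 0.

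The 9 listed central pair genes had a median share of 15.1%. Spef2 reached 48.1% and Cfap54 32.8%, but Hydin was found in 2.30%, Cfap65 in 1.15% and Spag16 and Spag17 in no cell.

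Regulators were split in the same way as in the class sums. Foxj1 was found in 44.0% (38.7 to 49.5%) of program-rich cells against 2.67% of the others, 26.2 CPM against 2.19 CPM. Rfx3 was found in 26.0% against 11.6%, and Rfx2 in 9.14% against 4.61%. Their levels per UMI differed less, with ratios of 1.65 (1.34 to 2.03) for Rfx3 and 1.24 (0.831 to 1.79) for Rfx2. Ccno was found in 0.289% of program-rich and 0.612% of other cells.

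Capsl was common outside program-rich cells too. It was found in 99.3% of program-rich cells but also in 71.6% of the others, and 17.4% of its cKO luminal UMIs lay in program-rich cells. Its level in the other cKO luminal cells was 293 CPM, against 464 CPM in program-rich ones, a ratio of program-rich to other cells of 1.58 (1.53 to 1.64).

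Program-rich cells were also left out of both libraries, an alternative chosen after the data were seen. It removes cells by the genes that are then compared, 182 hormone-sensing cells in cKO and 1 in Ctrl, so lower ratios follow in part from the choice. The hormone-sensing sum was then 2.89 times as high in cKO as in Ctrl. Of the 25 genes that could be compared before and after, 23 had been called and 18 of these stayed on the same side of 1.5-fold. Capsl kept a log2 ratio of 1.96 (1.89 to 2.03), and Ccdc113 kept 2.79 (2.22 to 3.42). Foxj1 kept 2.95 (2.0 to 4.06), against 4.29 with all cells. The log2 ratios of 4 genes turned below 0 in this class, Spef2 at -0.19, Cfap45 at -0.05, Cfap53 at -0.89 and Tppp3 at -0.32.

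Co-detection of Foxj1 with the axonemal genes was counted within each library. In cKO, 247 of 3940 luminal cells held a Foxj1 UMI, and the median number of the other 46 genes detected was 13 in these cells against 2 in the cells without one. Of 36 genes found in at least 20 cells, 35 had a share in Foxj1-positive cells whose interval lay above that of the Foxj1-negative cells, and the exception was Ccno. Pifo was found in 50.2% (43.8 to 56.6%) of Foxj1-positive cells and 4.33% (3.70 to 5.04%) of the others, and Iqub in 43.3% (37.1 to 49.8%) and 3.25% (2.70 to 3.87%). Foxj1-positive cells were deeper, with a median of 22343 UMIs against 15698, and the part of depth in these shares was not tested beyond thinning. After thinning, 61 cells held Foxj1, and the interval lay above that of the other cells for 21 of the same 36 genes and overlapped it for 15, among them Dnah11, Tekt1, Cfap44 and Spef2. In the thinned cells Pifo was found in 21.3% (11.9 to 33.7%) of them against 1.67% (1.29 to 2.14%) of the others. Foxj1 was not seen in every program-rich cell: 192 cells with at least 10 of the other 46 genes held no Foxj1 UMI.

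The Ctrl cells with Foxj1 held fewer of the other genes than the cKO cells with Foxj1. There were 31 of 2198 luminal cells, with a median of 4 of the other genes against 2 in the cells without Foxj1. None of the 31 held 10 or more of the other genes. Pifo, Iqub, Tekt1 and Dynlrb2 were found in 0 of the 31, and the limit of 3 cells allows a share of up to 9.68% for each gene. They were also rare in the Ctrl cells without Foxj1, at 0.231%, 0.0461%, 0.0461% and 0.277%, so their absence says little about Foxj1. Of 20 genes found in at least 20 Ctrl luminal cells, 2 (Rfx2 and Mns1) had an interval above that of the cells without Foxj1. Rfx3 was found in 25.8% (11.9 to 44.6%) of these cells, close to the 25.9% (20.6 to 31.8%) of cKO cells with Foxj1.

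**Figure D5:**
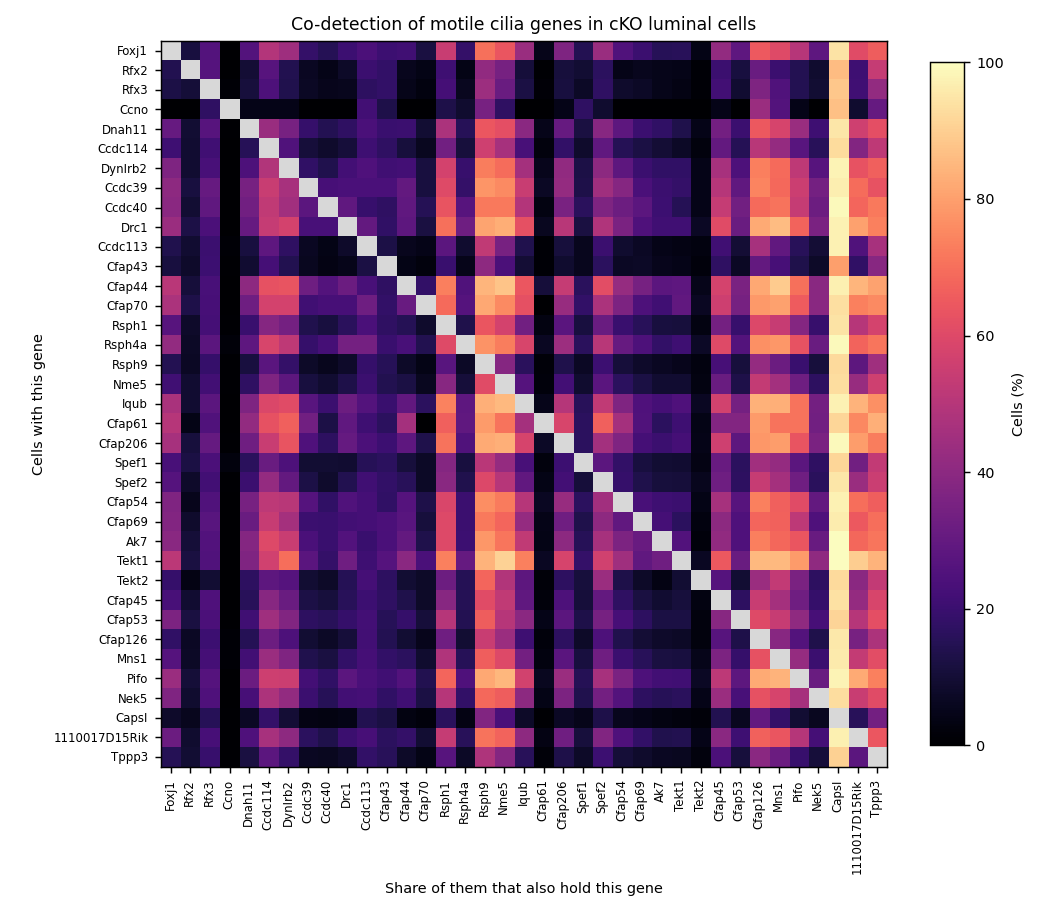
Share (%) of cKO luminal cells holding the row gene that also hold the column gene. The 37 genes found in at least 20 cKO luminal cells are drawn, and the grey diagonal is not counted. All UMIs were used without thinning, so the shares also depend on the depth of each cell. Rows such as Tekt1, Cfap44, Drc1 and Iqub are bright across the axonemal columns, whereas the rows of Capsl, Cfap43, Rfx2, Rfx3 and Ccno are darker outside the Capsl column.

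Other cilium genes, from lists that are not members, were read in the same program-rich cells. Of 61 further motile cilia genes, 42 had at least 20 UMIs over program-rich and other cKO luminal cells, and 40 of these were at least 1.5-fold higher in the program-rich ones, against 11% of all 13823 genes measured (8.43% lower). Efcab1 stood at 23.5 CPM in program-rich and 0.656 CPM in other cells, and Fam183b at 35.5 and 0.684 CPM. Since the cells were chosen on genes of the same kind, this is a description. Of 25 intraflagellar transport genes, which carry cargo along every cilium, 19 were higher and 0 lower, and the median log2 ratio was 0.998. Ift74 stood at 72.9 CPM in program-rich and 19.0 CPM in other cells. Of 20 genes of the BBSome and primary cilium, 13 were higher and 0 lower (median 0.66).

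The centriole multiplication list showed no such shift in its median. Of its 14 genes, 8 had at least 20 UMIs, with a median log2 ratio of -0.12. Of these 8, 2 were higher (Myb and Ccp110) and 1 lower (Stil), against 11% and 8.43% of all genes. Stil had 3 UMIs in program-rich and 40 in other cells, a ratio of 0.472 (0.0934 to 1.48), so its interval includes no difference. Gmnc and Cdc20b, which act early and late in that branch, had 0 UMIs in program-rich cells and 0 in the other cKO luminal cells. Trp73 had 0 and 1 UMIs, and Deup1 had 1 and 10, so these genes were too rare to compare. Myb stood at 27.8 CPM in program-rich and 13.4 CPM in other cKO luminal cells.

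Between the libraries the same lists gave lower median ratios than the program, and their counts stand beside the 14.3% of all genes higher and 17.7% lower in hormone-sensing cells. In hormone-sensing cells 37 of the 38 further motile cilia genes with at least 20 UMIs were higher in cKO and 1 (Dnaaf3) was lower, with a median log2 ratio of 2.39. Genes could pass that minimum through their cKO counts alone, and 17 of the 61 on the list had UMIs in cKO and 0 in Ctrl. Nothing is therefore read from that count. Enkur had 426 UMIs in cKO and 73 in Ctrl, a ratio of 4.53 (3.53 to 5.89), and Dnaaf3 had 166 and 205. For intraflagellar transport 13 of 25 were higher and 0 lower (median 0.69). Ift57 had 783 UMIs in cKO and 211 in Ctrl, a ratio of 2.88 (2.47 to 3.37). For the BBSome and primary cilium 11 of 20 were higher and 2 lower (median 0.61), and the 2 lower genes were the Hedgehog pathway members Smo, with 247 UMIs against 298, and Ptch1. For centriole multiplication 1 of 8 was higher (Ccp110) and 1 lower (Cep152), with a median of 0.09, so the share higher was near that of all genes.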

How the data were processed

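Per the labels' protocols, FACS-enriched mammary cells were loaded on 10x Chromium 3′ (v2) chips. The authors deposited counts, whole numbers of UMIs per gene and barcode, and nothing was normalized. The tools were Cell Ranger 2 with the mm10 build, per the submitters' processing notes, but the file headers record software version 3.0.0. The 2 libraries held 6257 cKO and 4237 Ctrl barcodes. Cells with at least 500 genes and at most 10% mitochondrial UMIs were kept, and Scrublet (scanpy 1.11.5) calls, 55 in cKO (1.00%) and 27 in Ctrl (0.790%), were removed.

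Each cell took the lineage with the highest mean natural log of 1 + UMIs per 10000 over its markers (at least 0.4), and luminal cells were divided at 0.4 on the hormone-sensing list (Prlr, Esr1, Pgr, Foxa1, Cited1) and the progenitor list (Aldh1a3, Kit, Elf5, Csn3, Cd14). These cuts were set with the data known. In each class the UMIs of a library were added up and given per 1000000 (CPM). A gene was called at 1.5-fold with at least 20 UMIs over both libraries. With 1 library per group no test between groups was possible. Levels carry exact Poisson, shares exact Clopper-Pearson and ratios exact conditional binomial intervals (95%), which cover counting error only; a fold against 0 UMIs uses a floor of 3, and a share of 0 is given with the limit of 3 cells of the total in place of the upper Clopper-Pearson bound. For shares, cells were thinned to 3000 UMIs. Positions and 3′ untranslated regions came from GENCODE M21 on GRCm38, and promoters and microRNAs from RefSeq on GRCm38.p6. Members and lists were chosen with earlier results of these data known. The text names all 47 members, up to 6 genes of each other list by UMIs among those 1.5-fold apart, and the 10 genes most correlated with the number of members per cell; others were named after their values were seen. The scripts were tested on simulated data.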

Additional observations from a re-analysis of the deposited data

Results flagged for a closer look

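Tppp3 differed in direction between hormone-sensing and basal cells. In hormone-sensing cells it was higher in cKO, with 1271 UMIs against 657 in Ctrl, a log2 ratio of 0.586. In basal cells it was lower in cKO, with 173 UMIs against 565 in Ctrl, a log2 ratio of -1.0. With 1 library per group the difference between these classes was not tested. In cells with both marker sets the ratio was 1.05 (0.975 to 1.14), and in hormone-sensing cells without the program-rich ones the log2 ratio was -0.32.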

How the results depend on the processing

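No paired analysis was possible because each group had 1 library. The ratio of the hormone-sensing sum stayed above 1 in every setting run. Trimmed-mean scaling gave sums of 4.24 in hormone-sensing cells and 3.64 in cells with both marker sets. With Prlr and Aldh1a3 alone the class with both marker sets gave 3.48 and 2 genes lower, and progenitor cells 1.26 and 4 higher. Without the gene with most UMIs the sums were 2.81 in cells with both marker sets, 1.41 in progenitor and 1.18 in basal cells. Keeping doublet calls, or every barcode, gave 2 lower genes in cells with both marker sets. A marker lead of 0.5 gave 5 higher genes in basal cells. At 50 UMIs 0 genes were lower in cells with both marker sets and 1 was higher in basal cells. At 1 UMI, 1 was lower in hormone-sensing cells and 4 in cells with both marker sets, 22 were higher and 10 lower in progenitor cells, and 13 higher and 11 lower in basal cells. At 2-fold, 4 were higher and 0 lower in progenitor cells and 2 lower in basal cells. The causes of these changes were not tested beyond what each setting alters.

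Shares of cells with at least 3 genes moved with depth. At 1000 UMIs they were 6.16% in cKO and 0.150% in Ctrl hormone-sensing cells, 2.03% and 0% in cells with both marker sets, 0.0937% and 0% in progenitor cells, and 0% and 0% in basal cells. At 5000 UMIs they were 25.7% and 4.08% in hormone-sensing cells and 17.8% and 2.21% in cells with both marker sets, with 2.55% in cKO progenitor and 0.907% in cKO basal cells. With at least 1000 genes and at most 5% mitochondrial UMIs the cKO basal share was 0%.

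Of the alternatives chosen after seeing the data, leaving out cells with at least 10 of the genes, which removes cells by the genes compared, gave sums of 2.89 in hormone-sensing cells, 2.53 in cells with both marker sets and 1.42 in progenitor cells, with 18 higher and 1 lower gene in hormone-sensing cells and 2 lower in cells with both marker sets. Log2 ratios turned to -0.19 for Spef2, -0.050 for Cfap45, -0.89 for Cfap53 and -0.32 for Tppp3 in hormone-sensing cells, and to -0.10 for Spef2 and -0.26 for Cfap45 in cells with both marker sets. A level of 8 genes gave 449 cKO and 56 Ctrl luminal cells, and a level of 12 gave 273 and 1. Genes with few UMIs, such as Hydin or Tekt4, are limited by depth in every setting.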

Other observations

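Outside the lists, the 10 genes whose level followed the number of members detected most closely over the 3940 cKO luminal cells had Pearson coefficients of 0.45 to 0.58, which share each cell's depth and are a description. Cbr2, a carbonyl reductase, was first, at 0.58, with 145 CPM in program-rich and 9.23 CPM in other cKO luminal cells, against 11.8 CPM in Ctrl luminal cells. Il33, an alarmin cytokine, stood at 211 CPM in program-rich and 24.2 CPM in other cKO luminal cells, against 1.79 CPM in Ctrl. The interferon-induced membrane protein Ifitm3 stood at 2040 and 777 CPM, against 354 CPM in Ctrl, and was found in 94.1% of cKO luminal cells. Mlf1 stood at 97.8 and 25.2 CPM and the transition-zone gene Tmem107 at 95 and 20.7 CPM, against 14.1 and 14.0 CPM in Ctrl. Ctxn1, Mak, 1700016K19Rik, 2410004P03Rik and 1700007K13Rik completed the 10, and 2410004P03Rik stood at 24.3 and 0.356 CPM, against 0.0258 CPM in Ctrl.

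Barcodes outside the cell filter were too shallow to be read for the number of genes per cell, with a median of 1123.5 UMIs in cKO and 1270.5 in Ctrl. Among 664 cKO and 668 Ctrl luminal barcodes there, 1 in cKO and 0 in Ctrl held at least 10 of the genes, and Foxj1 stood at 5.33 CPM in cKO (5 UMIs) and 1.47 CPM in Ctrl (2 UMIs). Sftpc, a lung surfactant gene, stood at 0.103 CPM in Ctrl luminal cells, below both groups of cKO luminal cells.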
